A study of Mus musculus with 14 samples.

Results

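Immunoglobulin light chain genes in the spleen are the subject here, taken as the rows of a read count table named Igkv, Igkc, Iglv or Iglc. Of 22116 named genes in the table, 108 met this rule: 100 kappa variable segments (Igkv), the kappa constant gene Igkc, 3 lambda variable segments (Iglv) and 4 lambda constant genes (Iglc). None of the 108 rows carried a symbol in the table, and all were named from their Ensembl identifiers with GENCODE mouse release 39. That release lists 60 further Igkv rows as pseudogenes, and these were not analysed here.

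The libraries were poly(A) RNA-seq of whole spleen from wild-type female BALB/c mice aged 6 to 8 weeks, all in 1 labelled batch. Control mice (3 libraries) received the vehicle petrolatum on back skin and ears, although the series design calls them untreated. The 2 imiquimod groups (4 libraries each) received 5% imiquimod cream, a Toll-like receptor agonist used to provoke psoriasis-like skin inflammation, daily for 5 days, on the back ("imiquimod-dorsal") or on the ear ("imiquimod-ear"). The last group (3 libraries, "IL-23-ear") received recombinant IL-23 by injection into the ear skin, 1 µg per ear in 4 injections over 7 days. The labels give no vehicle-injected control for IL-23. Agent, dose and schedule differ together between IL-23-ear and both imiquimod groups, and site as well against imiquimod-dorsal. The 2 imiquimod groups share the cream strength and the 5 days of treatment but not the site, and the amount of cream is not compared here. Libraries are called by group and the label's replicate number.

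Every antibody pairs heavy chains with light chains, and each B cell normally makes its light chain from either the kappa or a lambda locus. In a developing B cell the RAG recombinase joins a variable segment to a joining segment by cutting at a recombination signal, a heptamer and a nonamer held apart by a spacer. Circulating and splenic B cells carry moderate amounts of light chain mRNA, whereas plasma cells, which secrete antibody, hold very large amounts. In whole spleen RNA the number of such cells and the light chain RNA in each cannot be told apart. In mice most light chains are kappa.

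The recombination signals show how the V segments described below differ at the site where they are joined. For each of the 103 V segments the best match to a signal of this layout began directly after the annotated coding end in GRCm39. In Igkv1-131 and Igkv4-62 that match differs from the consensus at 9 and 7 of the 16 heptamer and nonamer bases, so it is no recognisable signal; in the others it differs at 3 or fewer. Heptamer and nonamer are in capitals and the spacer, 12 bases for kappa and 23 for lambda, is in lower case.
Igkv3-4: CACAGTGctccagggctgaACAAAAACC
Igkv4-69: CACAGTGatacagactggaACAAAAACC
Igkv12-44: CACAGTGattcaagccatgACATAAACC
Igkv12-89: CACAGTGattcaagccatgACATAAATC
Igkv7-33: CACAGTGcttcagcctcctACACAAACC
Igkv1-117: CACAGTGatacagaccctaACAAAAATA
Igkv5-39: CACAATGatgcagaccataGCAAAAACC
Iglv1: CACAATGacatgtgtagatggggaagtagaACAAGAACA
Iglv2: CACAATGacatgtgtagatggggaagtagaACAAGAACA
Iglv3: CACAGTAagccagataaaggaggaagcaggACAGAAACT

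Igkv3-4 and Igkv4-69 carry the consensus heptamer CACAGTG and nonamer ACAAAAACC without a difference, as did 32 of the 100 Igkv segments. The heptamer was exact in 87 and the nonamer in 34. The signal of Igkv5-39 (chr6:69877380-69877407, minus strand) differs from this consensus at 2 positions, as does that of Igkv1-117 (chr6:68098812-68098839, plus strand). Igkv3-4 (signal at chr6:70649362-70649389, plus strand) shares its 28 bases with Igkv3-2 and 6 other family 3 segments. Iglv1 (chr16:18903728-18903766) and Iglv2 (chr16:19079112-19079150) have the same signal, while that of Iglv3 (chr16:19059918-19059956) differs, and all 3 lie on the minus strand. In all, the 100 Igkv segments had 64 distinct sequences at this place.

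Light chain promoters are known for an octamer, ATTTGCAT, that POU-domain factors and the B cell coactivator Pou2af1 bind. It was searched on both strands from 250 bases before to 50 after each annotated gene start. The octamer is in capitals below, within 40 bases read on the gene's strand.
Igkv5-39: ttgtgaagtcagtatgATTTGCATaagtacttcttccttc
Igkv3-4: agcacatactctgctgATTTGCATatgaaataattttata
Igkv3-2: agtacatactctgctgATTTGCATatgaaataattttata
Igkv12-44: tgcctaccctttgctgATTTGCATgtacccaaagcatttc
Iglv1: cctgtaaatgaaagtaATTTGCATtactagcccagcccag
Iglv2: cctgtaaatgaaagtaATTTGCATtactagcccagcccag
Iglv3: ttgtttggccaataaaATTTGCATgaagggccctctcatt

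The octamer was present in 73 of 100 Igkv windows and in all 3 Iglv windows, against 534 of 22101 windows of all named genes (2.42%). It was in none of the 5 constant gene windows. In Igkv windows it began at a median of -92 bases from the annotated start, between -201 and 33. Igkv1-117 and Igkv7-33 had no exact octamer in the window, which says only that these letters are not there.

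Each library held 28354674 to 40289411 counts on named genes, of which 202684 to 687125 were light chain counts. Light chain genes took 0.764%, 0.811% and 0.705% of counts in control 2, 4 and 5. In imiquimod-dorsal 2, 3, 4 and 5 they took 0.824%, 0.542%, 0.680% and 0.884%. In imiquimod-ear 1, 3, 4 and 5 they took 1.83%, 1.99%, 1.36% and 1.56%, and in IL-23-ear 1, 2 and 3 they took 0.882%, 0.757% and 0.694%. All 4 imiquimod-ear libraries lay above every other library, and the other 3 groups overlapped.

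The share differed among the 4 groups (88.4% of the variance between groups, exact permutation p = 0.00187 over all 4204200 assignments of libraries to groups, adjusted p = 0.0025 over 4 such tests). The imiquimod-ear mean of 1.69% ± 0.278 (SD, n = 4) was 2.22-fold the control mean of 0.760% ± 0.0532 (SD, n = 3) and 2.30-fold the imiquimod-dorsal mean of 0.732% ± 0.153 (SD, n = 4). The exact two-sided permutation test gave p = 0.0571 for imiquimod-ear against control and p = 0.0286 for imiquimod-ear against imiquimod-dorsal, the smallest values these group sizes allow (both adjusted p = 0.0952 over 20 pair tests). The IL-23-ear mean was 0.778% ± 0.0957 (SD, n = 3), 1.02-fold the control mean, with an exact permutation p of 0.9. Counting error is small beside these spreads. The 95% exact binomial interval of control 2, for example, ran from 0.761% to 0.767% and covers counting error only.

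Haemoglobin genes, whose RNA comes from red cells and shares the library, took 6.69% to 10.4% of counts in imiquimod-dorsal, 1.24% to 4.17% in controls and 0.751% to 4.89% in imiquimod-ear. With haemoglobin left out of the denominator, the imiquimod-dorsal minus control difference in light chain share went from -0.0276 to 0.0199 percentage points. Both values were within the spread between replicates.

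**Figure D1:**
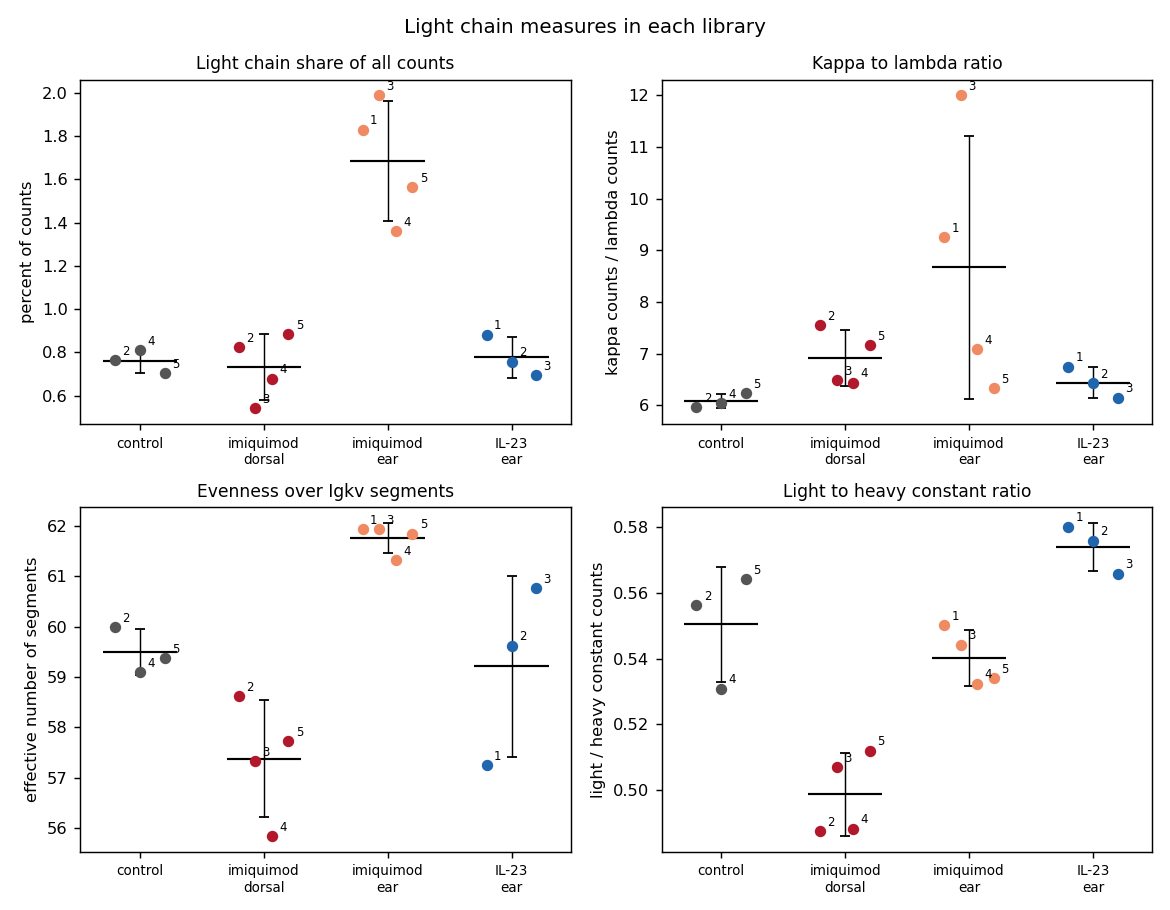
Light chain measures in each library by group, with replicate numbers beside the points and bars for mean and SD. The imiquimod-ear libraries stand above all others in light chain share (1.36% to 1.99%) and spread widely in kappa to lambda ratio (6.33 to 12.0).

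The kappa share of counts was 0.652% ± 0.0442 (SD, n = 3) in controls and 1.51% ± 0.290 (SD, n = 4) in imiquimod-ear. The lambda share was 0.107% ± 0.00909 in controls (SD, n = 3) and 0.178% ± 0.0256 (SD, n = 4) in imiquimod-ear. Kappa counts per lambda count were 5.97, 6.04 and 6.24 in control 2, 4 and 5. They were 7.56, 6.49, 6.44 and 7.16 in imiquimod-dorsal 2, 3, 4 and 5. Every imiquimod-dorsal library thus had a higher ratio than every control, by 0.18 on the log2 scale between means (exact permutation p = 0.0571, the smallest possible, adjusted p = 0.0952). With the constant genes alone the 2 groups overlapped and the difference was 0.14 (exact permutation p = 0.343).

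In imiquimod-ear 1, 3, 4 and 5 the ratio was 9.26, 12.0, 7.09 and 6.33. In IL-23-ear 1, 2 and 3 it was 6.75, 6.43 and 6.15. The imiquimod-ear libraries all lay above the controls on this ratio, and reached nearly from the control range to 12.0, the highest of the 14 libraries. With the V segments alone they overlapped the controls: Igkv counts per Iglv count were 8.91, 12.0, 6.86 and 5.67 in imiquimod-ear 1, 3, 4 and 5 against 6.99, 6.01 and 6.73 in control 2, 4 and 5. The imiquimod-ear minus control difference in log2 ratio was 0.47 with all genes, 0.58 with constant genes and 0.29 with V segments (exact permutation p = 0.0571, 0.0571 and 0.457). The log2 ratio did not pass the test of 4 groups (44.4% of the variance, exact permutation p = 0.0799). With only the constant genes counted it did (60.0%, exact permutation p = 0.0205), and with only the V segments it did not (22.9%, exact permutation p = 0.446). With all genes counted it passed without imiquimod-ear 4 (p = 0.0451) or without imiquimod-ear 5 (p = 0.0127), by the same exact test. Over the 14 runs that each left out 1 library, the exact permutation p ran from 0.0127 to 0.150.

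The constant genes carry most light chain counts, with Igkv counts at 0.676 ± 0.0201 per Igkc count (SD, n = 3) in controls. Igkc encodes the part shared by every kappa light chain. Its TMM-scaled level in CPM, that is counts scaled to a fixed library total, was 3504, 3788 and 3321 in control 2, 4 and 5. It was 5042, 3358, 4024 and 5173 in imiquimod-dorsal 2, 3, 4 and 5 and 9844, 10818, 7144 and 7481 in imiquimod-ear 1, 3, 4 and 5. It was 4248, 3945 and 3558 in IL-23-ear 1, 2 and 3. All imiquimod-ear libraries lay above the rest, while imiquimod-dorsal 3 lay within the control range.

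Igkc rose in imiquimod-ear against control by 1.32 ± 0.17 on the log2 scale (SE, edgeR's quasi-likelihood test, adjusted p = 0.00113, higher in 4 of 4 libraries). In imiquimod-dorsal the log2 fold change of Igkc was 0.31 ± 0.16 (SE, edgeR adjusted p = 0.115). Without imiquimod-dorsal 3 it was 0.42 (edgeR adjusted p = 0.0303).

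Iglc1, Iglc2 and Iglc3 encode the constant parts of lambda light chains. All 3 rose in imiquimod-ear against control, by 0.77, 0.79 and 0.51 on the log2 scale (edgeR's quasi-likelihood test, adjusted p = 0.00349, 0.00348 and 0.00647). Iglc3 lost its call without control 4 (edgeR adjusted p = 0.0529). Iglc4, with 0.489 to 1.33 CPM over the 14 libraries, had a log2 fold change of 0.33 (edgeR adjusted p = 0.513). The coding sequences of Iglc2 and Iglc3 are 96.2% identical, so the counting could have split reads between them and their separate values are uncertain.

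Iglv3 is the lambda segment least like the others, with 55.7% identity to Iglv1. Its CPM was 34.4, 31.1 and 29.1 in control 2, 4 and 5. It was 44.4, 37.0, 40.3 and 42.7 in imiquimod-dorsal 2, 3, 4 and 5 and 117, 81.0, 103 and 94.0 in imiquimod-ear 1, 3, 4 and 5. It was 36.2, 37.7 and 30.5 in IL-23-ear 1, 2 and 3. Controls, imiquimod-dorsal and imiquimod-ear did not overlap.

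Iglv3 rose in imiquimod-ear against control by 1.65 ± 0.12 on the log2 scale (SE, edgeR's quasi-likelihood test, adjusted p = 4.1e-05), the smallest adjusted p among the light chain genes in that comparison. It also rose in imiquimod-dorsal against control, by 0.38 ± 0.12 (SE, edgeR adjusted p = 0.0130), a call lost without control 4 or control 5 (edgeR adjusted p = 0.0687 and 0.0940). Iglv1 rose in imiquimod-ear by 0.97 (edgeR adjusted p = 0.00180). Iglv2 was called at the margin (0.83, edgeR adjusted p = 0.0484).

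The Iglv2 values in imiquimod-ear 1, 3, 4 and 5 were 207, 114, 202 and 317 CPM, against 104, 118 and 133 CPM in control 2, 4 and 5. Imiquimod-ear 3, the library with the highest kappa to lambda ratio, lay inside the control range of Iglv2 and above it for Iglv1. The Iglv2 call was lost in 11 of the 14 alternatives run, among them RLE size factors (edgeR adjusted p = 0.0540) and leaving out control 2 (edgeR adjusted p = 0.185). Iglv1 and Iglv2 are 96.9% identical over their coding bases, so reads could have been shared between them too.

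In imiquimod-ear against control, 84 of the 106 light chain genes tested rose and none fell, where 14.3% of all 15159 genes tested rose and 6.98% fell (21.2% in either direction). The median log2 fold change was 1.38 for the light chain genes and 0.02 for all genes. By class, 77 of 98 Igkv segments, Igkc, 3 of 3 Iglv (Iglv2 at the margin, as above) and 3 of 4 Iglc genes rose. In 85 of 106 members every imiquimod-ear library lay above every control, as in 13.5% of all genes. The rows Igkv1-131 and Igkv1-35 held 7 and 14 counts in all libraries together and were not tested. Another 4 of the tested members fell short of 10 counts in at least 1 library, so the tested members are not all members. Igkv20-101-2 reached 10 counts in all 4 imiquimod-ear libraries but in 1 control, 1 imiquimod-dorsal and 0 IL-23-ear libraries. It thus passed the filter through imiquimod-ear, where it is high, and adds no support to the counts above. Igkv3-9 reached 10 counts in all libraries of both imiquimod groups but in 1 control and 1 IL-23-ear library. It passed the filter through the imiquimod groups and likewise adds no support to the counts above.

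The largest called rises in imiquimod-ear, among the better expressed segments (log2 CPM averaging 1 or more) whose groups did not overlap, were Igkv4-54 (3.17 on the log2 scale), Igkv3-4 (2.82), Igkv4-69 (2.60) and Igkv4-80 (2.58). The place of Igkv4-54 rested on imiquimod-ear 5, with 21.4 CPM against 5.02, 9.83 and 6.98 in imiquimod-ear 1, 3 and 4: without that library its log2 fold change was 2.56 and that of Igkv3-4 was 3.03. Igkv3-4 had 30.7, 26.3 and 26.0 CPM in control 2, 4 and 5 and 247, 327, 123 and 85.9 CPM in imiquimod-ear 1, 3, 4 and 5. Its imiquimod-dorsal values in libraries 2, 3, 4 and 5 were 51.4, 50.1, 65.0 and 57.1 CPM. Igkv3-4 was the most counted segment of imiquimod-ear 3, with 4.41% of its Igkv counts, and imiquimod-ear 1 and 3 stood well above 4 and 5.

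Among the most abundant segments over all libraries, Igkv1-117, Igkv1-110 and Igkv1-135 rose in imiquimod-ear by 0.94, 0.96 and 1.37 on the log2 scale (edgeR's quasi-likelihood test, adjusted p = 0.00585, 0.00116 and 0.000837). Igkv10-96, Igkv4-59, Igkv9-120, Igkv3-2 and Igkv12-44 rose by 1.61, 0.96, 1.36, 2.19 and 2.10 (edgeR adjusted p between 0.000324 and 0.00548). Igkv1-117 and Igkv1-110 are 97.2% identical over coding bases and carry the same signal. Such near copies are common: 46 of 100 Igkv segments have a relative at 95% identity or more, so single-segment values are less certain than class sums.

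The 22 tested members that were not called in imiquimod-ear had log2 fold changes from -0.33 to 1.90. Igkv1-88, an abundant segment, had 96.5, 61.3 and 60.8 CPM in control 2, 4 and 5 and 59.3, 90.0, 75.3 and 112 CPM in imiquimod-ear 1, 3, 4 and 5. The groups overlapped, and its log2 fold change was 0.21 ± 0.28 (SE, edgeR adjusted p = 0.629).

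**Figure D2:**
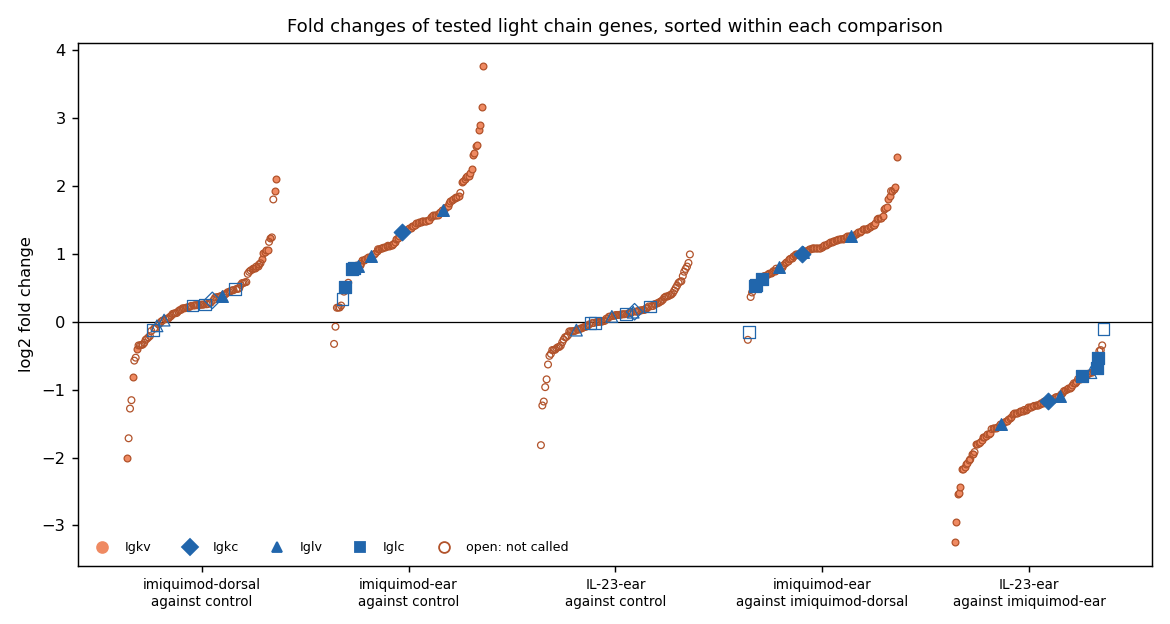
Log2 fold change of each tested light chain gene in the comparisons of the study, by gene class. In imiquimod-ear against control 84 of 106 genes passed the threshold upward, and in IL-23-ear against control none did.

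In imiquimod-dorsal against control, 12 of 106 light chain genes rose and 3 fell, where 32.3% of all genes rose and 27.6% fell (59.8% in either direction). The light chain genes were thus called less often than the background in this comparison, in which 9071 of 15159 genes passed. Without control 2, 7 members rose and 3 fell, without control 5, 7 rose and 5 fell, and without imiquimod-dorsal 2, 8 rose and 5 fell. In limma-voom 7 rose and 3 fell. More rose in other settings: 17 rose and 3 fell with only the 2 groups fitted. Without imiquimod-dorsal 3, 15 rose and 3 fell, and in DESeq2 14 rose and 4 fell. In the fit of all 14 libraries the light chain genes had a median log2 fold change of 0.25, against -0.00 for all genes. Every imiquimod-dorsal library lay above every control in 16 members and below in 3, against 33.0% and 28.1% of all genes.

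Igkv5-39 had the largest rise in imiquimod-dorsal. Its CPM was 46.1, 39.6 and 49.96 in control 2, 4 and 5 and 139, 152, 243 and 246 in imiquimod-dorsal 2, 3, 4 and 5. It was 190, 142, 153 and 164 in imiquimod-ear 1, 3, 4 and 5 and 67.3, 66.1 and 83.2 in IL-23-ear 1, 2 and 3. Both imiquimod groups lay above all controls and all IL-23-ear libraries, and they overlapped each other.

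Igkv5-39 rose by 2.11 ± 0.21 on the log2 scale in imiquimod-dorsal (SE, edgeR's quasi-likelihood test, adjusted p = 3.9e-06) and by 1.84 ± 0.21 in imiquimod-ear (SE, edgeR adjusted p = 0.000780). Between imiquimod-ear and imiquimod-dorsal its log2 fold change was -0.27 ± 0.18 (SE, edgeR adjusted p = 0.237), the lowest of the 106 members, whose median was 1.11. Within the Igkv counts, it held 1.57% to 2.27% in controls, 4.25%, 6.70%, 9.05% and 7.19% in imiquimod-dorsal 2, 3, 4 and 5, and 1.92% to 3.32% in imiquimod-ear. In IL-23-ear 1, 2 and 3 it held 2.35%, 2.77% and 3.94%, above every control, as 3 of the 4 imiquimod-ear libraries were. It was the most counted segment in imiquimod-dorsal 3, 4 and 5, a place held by Igkv1-117 or Igkv1-110 in every control. The nearest relative of Igkv5-39 is Igkv5-45, at 90.5% coding identity.

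The other large rises in imiquimod-dorsal were Igkv4-69 (1.93), Igkv3-2 (1.23) and Igkv4-80 (1.06 on the log2 scale, edgeR adjusted p = 0.00437, 0.00503 and 0.0270). The Igkv4-69 values in imiquimod-dorsal 2, 3, 4 and 5 were 5.28, 4.19, 17.3 and 15.1 CPM, against 2.40 to 3.01 CPM in controls. The rise of Igkv4-69 was thus larger in imiquimod-dorsal 4 and 5 than in 2 and 3. The Igkv4-80 call was lost when any 1 of the 3 controls was left out (edgeR adjusted p = 0.0533 to 0.114), without imiquimod-dorsal 2 (0.0763) and in limma-voom (0.102).

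Igkv12-44 rose by 1.05 ± 0.18 on the log2 scale in imiquimod-dorsal (SE, edgeR adjusted p = 0.000243), and Igkv3-4 by 1.01 ± 0.36 (SE, edgeR adjusted p = 0.0294). The call of Igkv3-4 was lost without any 1 control or without imiquimod-dorsal 4 (edgeR adjusted p = 0.0606 to 0.0907). The remaining called rises in this comparison were Igkv1-99, Igkv4-72, Igkv14-111, Igkv12-46, Igkv3-1 and Iglv3, named because all 12 are given.

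The 3 light chain genes that fell in imiquimod-dorsal were Igkv7-33, Igkv12-89 and Igkv2-137, by 2.00, 0.81 and 0.41 on the log2 scale. Igkv7-33, the sole Igkv family 7 row, had 11.7, 9.09 and 6.86 CPM in control 2, 4 and 5. It had 2.44, 3.39, 0.878 and 2.50 CPM in imiquimod-dorsal 2, 3, 4 and 5, all below the controls, and 8.80, 6.95, 8.55 and 10.8 CPM in imiquimod-ear 1, 3, 4 and 5. In IL-23-ear 1, 2 and 3 it had 8.32, 2.94 and 4.09 CPM, across the gap between those groups.

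The fall of Igkv7-33 in imiquimod-dorsal had an SE of 0.40 (edgeR's quasi-likelihood test, adjusted p = 0.000752). In imiquimod-ear against control its log2 fold change was -0.07 ± 0.38 (SE, edgeR adjusted p = 0.907). Tested between the 2 imiquimod groups, it was higher in imiquimod-ear by 1.93 ± 0.38 (SE, edgeR adjusted p = 0.00110). Igkv12-89 fell in imiquimod-dorsal (edgeR adjusted p = 0.00211) and rose in imiquimod-ear by 0.74 (edgeR adjusted p = 0.0159). Igkv12-89 and Igkv12-44 have the same spacer and heptamer in the sequences above.

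**Figure D3:**
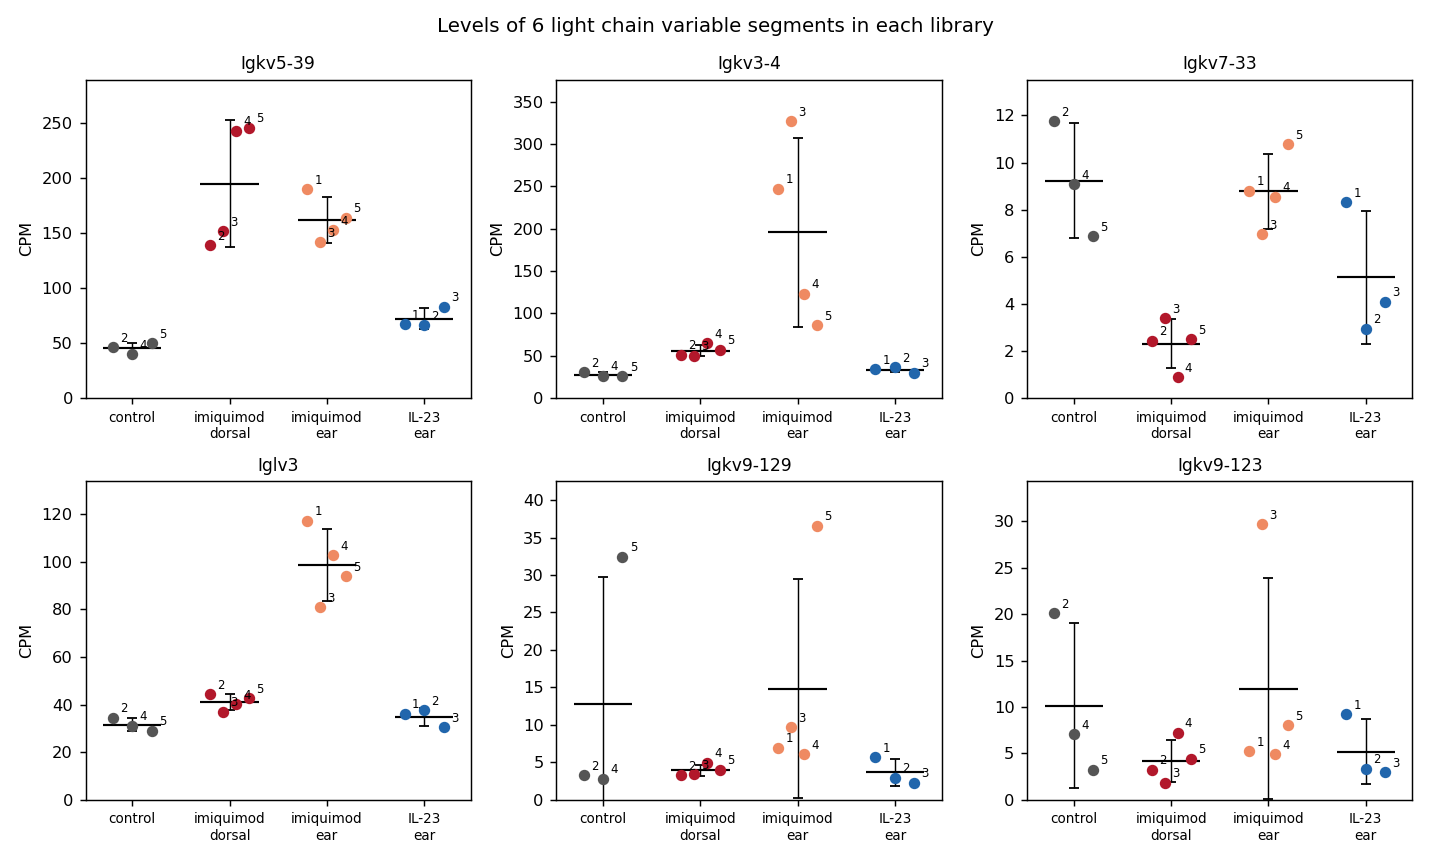
Level of selected light chain genes in each library (TMM-scaled CPM), with replicate numbers beside the points and bars for mean and SD. Igkv5-39 is high in both imiquimod groups, Igkv7-33 is low in imiquimod-dorsal, and single libraries stand apart for Igkv9-129.

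In IL-23-ear against control, none of the 106 light chain genes passed edgeR's threshold in either direction, and 2 had an unadjusted p under 0.05. Of all genes 0.0462% rose and 0.0066% fell (0.0528% in either direction). DESeq2, which gave 88 members an adjusted p, and limma-voom also called none, with 7 and 3 members at an unadjusted p under 0.05. The median log2 fold change of the members was 0.10. Igkv5-39 had the smallest adjusted p, at a log2 fold change of 0.67 ± 0.21 (SE, edgeR's quasi-likelihood test, adjusted p = 0.379, unadjusted p = 0.00681), and all 3 IL-23-ear libraries lay above all 3 controls. In 3 members every IL-23-ear library lay above every control and in 1 below, against 9.75% and 6.98% of all genes.

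Between the 2 imiquimod groups, 85 of 106 light chain genes were higher in imiquimod-ear and none lower, where 23.3% of all genes were higher and 24.5% lower (47.7% in either direction). Igkc was higher by 1.00 ± 0.15 on the log2 scale (SE, edgeR's quasi-likelihood test, adjusted p = 0.000171). Among the better expressed segments without overlap, the largest called differences were in Igkv4-54 (1.99), Igkv7-33 (1.93), Igkv4-62 (1.85) and Igkv3-4 (1.81). Igkv4-62 lost its call without imiquimod-ear 4 (edgeR adjusted p = 0.0575). Every imiquimod-ear library lay above every imiquimod-dorsal library in 71 members, against 19.8% of all genes. Igkv20-101-2, which passed the filter through imiquimod-ear, adds no support to the counts of members here.

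In IL-23-ear against imiquimod-ear, 80 of 106 light chain genes were lower and none higher, where 10.2% of all genes were lower and 7.06% higher (17.3% in either direction). This comparison uses the same imiquimod-ear libraries as the ones above. The median log2 fold change was -1.25 and Igkc was lower by 1.17 on the log2 scale, a log2 fold change of -1.17 ± 0.17 (SE, edgeR adjusted p = 0.00158). Igkv14-130 had the lowest value, -3.24 (edgeR adjusted p = 0.00241), with 0.473 to 0.678 CPM in IL-23-ear and 3.62 to 8.82 CPM in imiquimod-ear. In 86 members every IL-23-ear library lay below every imiquimod-ear library, against 12.5% of all genes. Igkv20-101-2 and Igkv3-9, which passed the filter through imiquimod groups as described above, add no support to the counts of members here.

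Evenness over segments was measured as the effective number of Igkv segments, the exponential of the Shannon entropy of their counts, which would be 100 if all 100 were counted equally. It was 60.0, 59.1 and 59.4 in control 2, 4 and 5. It was 58.6, 57.3, 55.8 and 57.7 in imiquimod-dorsal 2, 3, 4 and 5 and 61.9, 61.9, 61.3 and 61.8 in imiquimod-ear 1, 3, 4 and 5. In IL-23-ear 1, 2 and 3 it was 57.2, 59.6 and 60.8. Imiquimod-dorsal lay below the controls and imiquimod-ear above them without overlap, while IL-23-ear spanned the controls.

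The effective number differed among the 4 groups (77.7% of the variance, exact permutation p = 0.0015, adjusted p = 0.0025 over 4 tests). The group means were 59.5 ± 0.457 in controls (SD, n = 3), 57.4 ± 1.16 in imiquimod-dorsal (SD, n = 4), 61.8 ± 0.296 in imiquimod-ear (SD, n = 4) and 59.2 ± 1.79 in IL-23-ear (SD, n = 3). The difference from control was -2.11 in imiquimod-dorsal and 2.27 in imiquimod-ear, each with an exact permutation p of 0.0571, the smallest possible (adjusted p = 0.0952). These are shifts of under 5% in a broad use of segments: the 5 most counted segments of a library held 22.3% ± 0.173 of Igkv counts in controls (SD, n = 3), 24.7% ± 1.63 in imiquimod-dorsal (SD, n = 4) and 20.8% ± 1.06 in imiquimod-ear (SD, n = 4).

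The percent of Igkv counts that would have to move between segments to turn 1 library's use into another's was 9.85% to 13.1% within controls. It was 10.7% to 12.3% between controls and IL-23-ear, 13.2% to 19.2% between controls and imiquimod-dorsal, and 13.0% to 20.9% between controls and imiquimod-ear. Libraries of IL-23-ear were thus about as far from controls as controls were from each other. Within imiquimod-ear the range was 8.01% to 17.4%, reaching into the range between groups.

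Igkv segments fall into 20 families by sequence, the number before the hyphen. Family 3 held 8.26% ± 0.453 of Igkv counts in controls (SD, n = 3), 11.6% ± 1.04 in imiquimod-dorsal (SD, n = 4), 12.5% ± 3.29 in imiquimod-ear (SD, n = 4) and 10.0% ± 0.0800 in IL-23-ear (SD, n = 3). Every treated library lay above every control in family 3, with imiquimod-ear 5 closest at 8.93% against 8.79% in control 2. No test was run on family shares, which sum to a fixed total.

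Family 5, which holds Igkv5-39, took 4.98% in controls, 10.1% in imiquimod-dorsal, 6.52% in imiquimod-ear and 6.10% in IL-23-ear. Family 1, which holds Igkv1-117, took 19.5% in controls and 15.7% in imiquimod-ear, where libraries 1 and 3 (13.9% and 13.6%) were lower than 4 and 5 (17.6% and 17.7%). Family 12 took 4.46% in controls and 5.91% in imiquimod-ear, without overlap. All 6 family 12 segments tested rose in imiquimod-ear (median log2 fold change 1.84), as did 8 of 9 in family 3 (2.13). So did 20 of 26 in family 4 (1.49) and 6 of 8 in family 1 (0.95). The family 3 count includes Igkv3-9, which passed the filter through the imiquimod groups and adds no support. Without Igkv3-9, 7 of 8 family 3 segments rose in imiquimod-ear, with a median of 1.91. Of all genes 14.3% rose there, and of all Igkv segments 77 of 98, a share near those of families 4 and 1. In family 12 Igkv12-44 and Igkv12-46 rose in imiquimod-dorsal while Igkv12-89 fell.

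**Figure D4:**
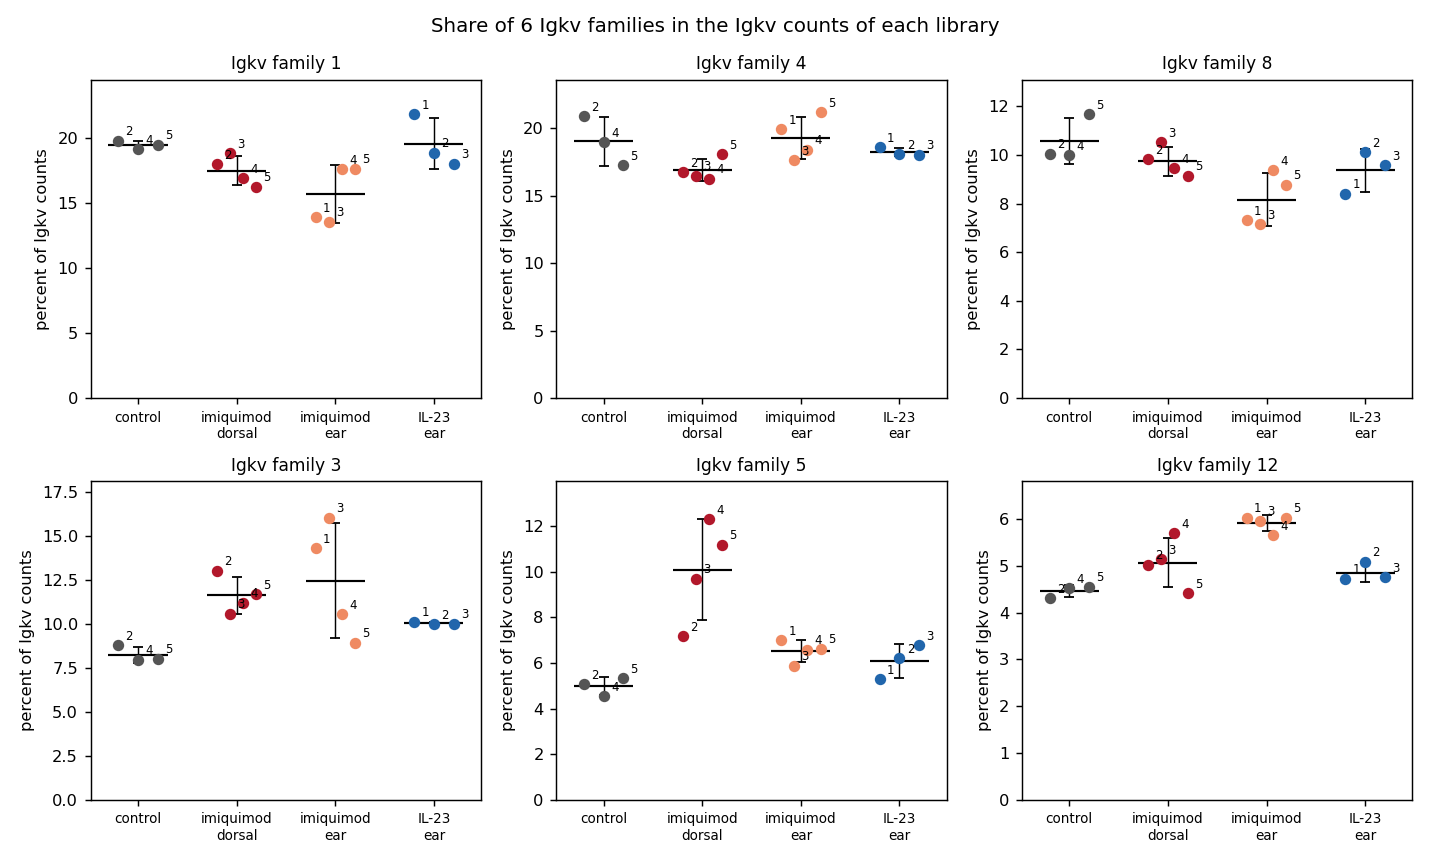
Share of 6 Igkv families in the Igkv counts of each library, with replicate numbers beside the points and bars for mean and SD. Family 3 is lowest in controls (7.98% to 8.79%), family 5 highest in imiquimod-dorsal (7.17% to 12.3%), and family 1 lowest in imiquimod-ear 1 and 3.

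Grouped by identical signal, the 8 segments with the signal printed for Igkv3-4 had a median log2 fold change of 0.74 in imiquimod-dorsal and 1.91 in imiquimod-ear, and 3 and 7 of them rose, where 32.3% and 14.3% of all genes rose in these comparisons. The 11 with the signal of Igkv4-69 had medians of 0.26 and 1.48, and 2 and 8 rose. In imiquimod-dorsal both counts were near or below the background. The 7 with the signal of Igkv7-33, from families 6, 7 and 8, had medians of 0.20 and 1.09. The 4 with the signal of Igkv12-44 had medians of 0.92 and 2.28. Segments with 1 signal are mostly of 1 family and share other sequence, so these values describe relatives and not the signal itself.

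Levels per length were compared as CPM per kb of exon. Their median was 67.6 over the 100 Igkv segments, from 0.0385 to 470, the highest being Igkv1-117. The 87 segments with an exact heptamer had a median of 56.7 CPM per kb and the 13 others 104, among them Igkv5-39. The 73 with an octamer in the window had 77.7 and the 27 without 56.1. The 5 segments whose signal differs from the consensus at 3 or more positions had a median of 8.94 CPM per kb. They ran from 0.0385 to 194 CPM per kb and include the segments without a recognisable signal. Segments with 0, 1 and 2 differences had medians of 85.0, 49.9 and 88.1 CPM per kb, without a steady fall.

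The Igkv segments lie 22.3 to 3170 kb upstream of Igkc (chr6:70703419-70703950, plus strand), 38 on its strand and 62 on the opposite one. Segments on the opposite strand are joined by inversion. The median log2 fold change in imiquimod-ear was 1.39 on the strand of Igkc and 1.42 on the other. Across 98 segments, which share libraries and neighbours and are not independent, distance from Igkc and log2 fold change had a Spearman correlation of -0.31 in imiquimod-dorsal and -0.24 in imiquimod-ear. Igkv3-2 and Igkv3-4 are among the segments nearest to Igkc, at 27.4 and 54.1 kb.

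**Figure D5:**
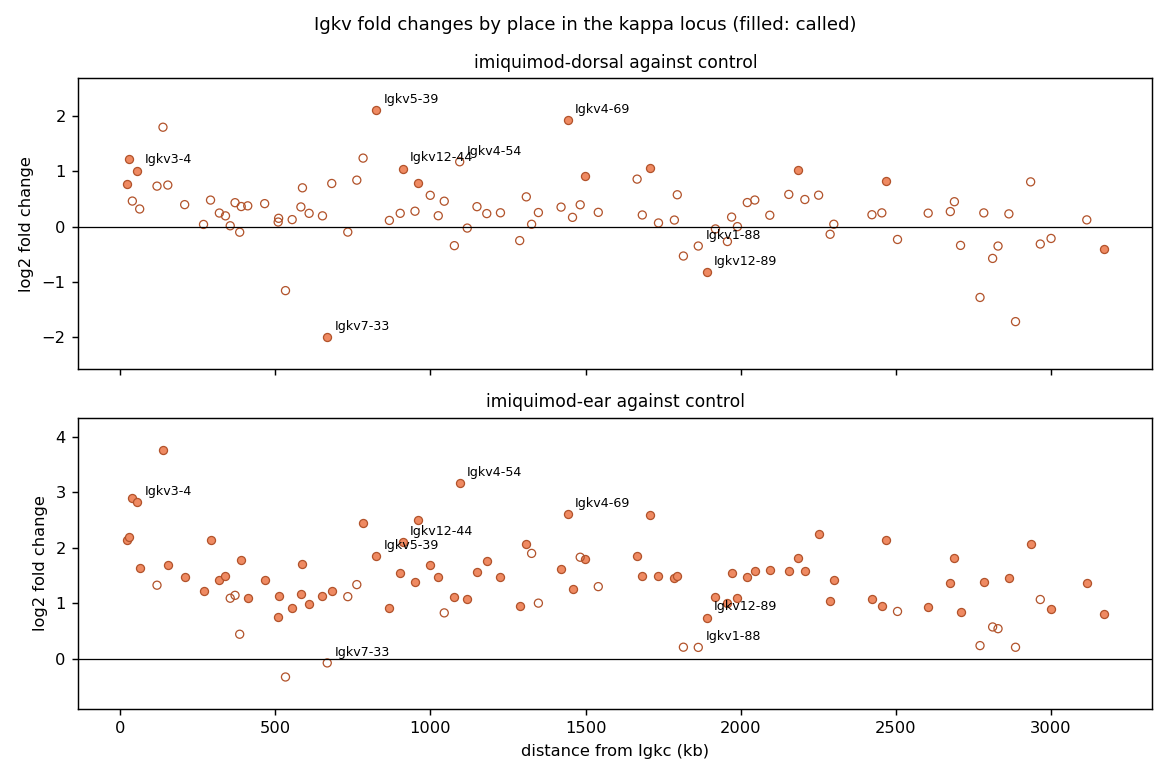
Log2 fold change of each tested Igkv segment against its distance from Igkc in kb, for imiquimod-dorsal and imiquimod-ear against control. The spread of values at any distance is wide in both panels, with Spearman correlations of -0.31 and -0.24 over 98 segments.

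Single libraries carried much of some segments. Igkv9-129 had 3.25 and 2.78 CPM in control 2 and 4 and 32.4 CPM in control 5. In imiquimod-ear 1, 3, 4 and 5 it had 6.95, 9.71, 6.08 and 36.6 CPM, and in the other groups 2.25 to 5.69 CPM. Igkv9-123 had 20.1 CPM in control 2 against 7.04 and 3.24 in control 4 and 5. Igkv1-132, Igkv6-29 and Igkv4-62 were highest among controls in control 4, at 3.78, 3.07 and 3.46 CPM against 0.546 to 1.37 CPM in the other controls. A mean over 3 or 4 mice says little about such segments.

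In imiquimod-ear, genes of antibody-secreting cells rose along with the light chain genes. All 13 plasma cell genes tested rose in imiquimod-ear (median log2 fold change 1.30), where 14.3% of all genes rose. Their summed level was 4281 to 6863 CPM there against 2132 to 2387 CPM in controls. Jchain, which links secreted IgM and IgA, rose by 1.46 and Xbp1, a regulator of the secretory program, by 1.28 on the log2 scale (edgeR's quasi-likelihood test, adjusted p = 0.00209 and 0.00175). Jchain made up much of the summed level, at 2273 to 3227 CPM in imiquimod-ear and 779 to 1086 CPM in controls. In imiquimod-dorsal 2 of the 13 rose and 1 fell, fewer than the 32.3% and 27.6% of all genes, with sums of 1626 to 2437 CPM, and in IL-23-ear none was called by edgeR. The gene that fell in imiquimod-dorsal was Irf4, at 55.5 to 65.5 CPM against 116 to 144 CPM in controls. The part of these 13 genes in the light chain result was not tested.

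Of 12 B cell surface and receptor genes, 1 rose and 3 fell in imiquimod-ear (median -0.13), where 14.3% of all genes rose and 6.98% fell. Their sums were 4667 to 5054 CPM there against 5314 to 5572 CPM in controls. In imiquimod-dorsal 1 rose and 4 fell, with sums of 4029 to 4848 CPM, where 32.3% of all genes rose and 27.6% fell. Cd79a, a signalling subunit of the B cell receptor, was at 619 to 884 CPM in all 14 libraries. Light chain counts per count of Cd79a and Cd79b were 5.02 to 5.49 in controls, 5.77 to 8.26 in imiquimod-dorsal, 10.5 to 16.9 in imiquimod-ear and 4.73 to 5.69 in IL-23-ear. Both imiquimod groups lay above the controls on this ratio without overlap.

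Per Jchain count, light chain counts were 6.40 to 8.22 in controls, 8.77 to 10.2 in imiquimod-dorsal, 6.03 to 6.16 in imiquimod-ear and 6.73 to 8.71 in IL-23-ear. Imiquimod-dorsal lay above and imiquimod-ear below the controls, the reverse of the order in evenness. The 6 T cell genes fell in imiquimod-dorsal, all 6 of them, with a median of -2.57, where 27.6% of all genes fell. The 4 haemoglobin genes rose with a median of 2.17, where 32.3% of all genes rose. The part of the T cell and haemoglobin genes in the imiquimod-dorsal values was not tested. Genes of light chain assembly and the surrogate light chain were scarce, with a summed level of 9.37 to 28.5 CPM, 5 of 7 in the table and 2 tested.

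Light chains pair with heavy chains, and their constant gene counts were compared as a ratio. Igkc and Iglc counts per heavy chain constant count were 0.556, 0.531 and 0.564 in control 2, 4 and 5. They were 0.487, 0.507, 0.488 and 0.512 in imiquimod-dorsal 2, 3, 4 and 5 and 0.550, 0.544, 0.532 and 0.534 in imiquimod-ear 1, 3, 4 and 5. In IL-23-ear 1, 2 and 3 they were 0.580, 0.576 and 0.566. Imiquimod-dorsal lay below and IL-23-ear above every other library.

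The log2 ratio differed among the 4 groups (88.1% of the variance, exact permutation p = 8.9e-05, adjusted p = 0.000358). Against control it was lower by 0.14 in imiquimod-dorsal, a difference of -0.14 (exact permutation p = 0.0571, the smallest possible), and differed by -0.03 in imiquimod-ear (exact permutation p = 0.343). Of the 8 heavy chain constant genes, 5 rose and 1 fell in each imiquimod group, where 32.3% of all genes rose and 27.6% fell in imiquimod-dorsal and 14.3% and 6.98% in imiquimod-ear. Among those that rose was Ighm, the constant gene of IgM, by 0.43 in imiquimod-dorsal and 1.39 in imiquimod-ear (edgeR adjusted p = 0.0278 and 0.000780). The Ighm call in imiquimod-dorsal was lost without control 2 or 5 or imiquimod-dorsal 2 or 5 (edgeR adjusted p = 0.0766 to 0.141). Ighd, the constant gene of IgD, fell in both.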

How the data were processed

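Read counts per gene were deposited by the authors as 1 table of raw counts for 14 libraries. The submitters' processing notes name fastp 0.23.2, HISAT2 2.2.1, featureCounts 2.0.3, StringTie 2.2.1, DESeq2 1.38.3 and GRCm39, without roles. Libraries were non-stranded and paired, 150 bases, per the labels' protocols; how reads matching several genes were counted is not given in the sources used here. The reference genome is of another strain than BALB/c, so reads of differing alleles may be undercounted; this was not tested. Whether replicates are separate mice rests on the design text.

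The 624 unnamed loci (0.484% to 0.674% of counts) were left out. Counts were fitted with edgeR 4.0.16 (R 4.3.3) in 1 quasi-likelihood model of all 14 libraries with TMM scaling, filterByExpr at a minimum count of 10 and Benjamini-Hochberg adjustment over 15159 genes, threshold 0.05; the fit was tested on simulated data. Shares, ratios and evenness used raw counts and exact two-sided permutation tests (SciPy 1.17.1). A count of 0 allows up to 3 counts, or 0.0745 to 0.106 CPM without TMM scaling. All 18 replicate pairs differed by more than counting noise (chi-square over its degrees of freedom 23.6 to 138).

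Named genes were the constant and Iglv genes, the 10 most abundant Igkv rows, per comparison the 4 largest called rises and falls without overlap at a log2 CPM of 1 or more, the 5 rows in which 1 library held the largest part of its group's summed CPM, and Jchain, Cd79a, Ighm and Xbp1. Members and lists were chosen with earlier results of these data known. Other scalings, filters, tools (DESeq2 1.42.0, limma 3.58.1), a replicate block and leaving out each library were tried. Sequences came from GRCm39 with GENCODE release 39 (pysam 0.24.0, Biopython 1.88).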

Additional observations from a re-analysis of the deposited data

Results flagged for a closer look

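In 4 of 68 sets of 4 libraries, 1 library lay far from the other 3 by Dixon's ratio; chance gives about 1 set in 20. The effective number of Igkv segments was 61.3 in imiquimod-ear 4, against 61.8 to 61.9 in the other imiquimod-ear libraries, a gap that is small beside the differences between groups. Igkv14-130 stood at 5.05 CPM in imiquimod-dorsal 2, with 1.01 to 1.55 CPM in the other imiquimod-dorsal libraries. Igkv9-123 stood at 29.7 CPM in imiquimod-ear 3, with 4.93 to 8.05 CPM in the others of its group. Igkv9-129 stood at 36.6 CPM in imiquimod-ear 5, with 6.08 to 9.71 CPM in the others.

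The joining segments, which were not members, also carried signal: the 7 light chain J rows summed to a mean of 234 CPM in imiquimod-ear, against 97.9 to 122 CPM in the controls.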

How the results depend on the processing

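The labels do not say that equal replicate numbers mark a shared animal or day, and same-numbered libraries did not deviate together (13 pairs, correlations from -0.24 to 0.18). With a replicate block, the count of called light chain genes in imiquimod-ear against control was 43 in place of 84; the cause was not tested. Under it the edgeR adjusted p in that comparison was 0.0556 for Igkv1-117, 0.0511 for Igkv4-59 and Igkv9-120, and 0.0647 for Igkv4-69. The other 69 recomputed counts of called genes stayed within 1.5 times the count reported. Leaving out 1 library gave 64 to 87 calls in imiquimod-ear and 10 to 18 in imiquimod-dorsal against control, and 54 to 81 in IL-23-ear against imiquimod-ear.

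For the 4 groups, the log2 kappa to lambda ratio took 60.0% of the variance with constant genes only and 22.9% with V segments only (exact permutation p = 0.446). With 1 library left out it took 35.8% to 65.7% (exact permutation p = 0.0127 to 0.150).

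Differences near 0 changed sign. The imiquimod-dorsal minus control light chain share was 0.0199 points with haemoglobin left out, 0.0360 under the replicate block, and -0.0781 to 0.0360 with 1 library left out. The IL-23-ear minus control share was -0.0344 to 0.0596 and the difference in effective number -1.05 to 0.705 with 1 library left out. In imiquimod-dorsal against control the log2 fold change of Iglv2 (0.02) became -0.00577 with RLE size factors, -0.00613 with scaling that left out haemoglobin and immunoglobulin genes, -0.0277 without a filter, -0.0198 with 2 groups only and -0.00587 in DESeq2, and ran from -0.12 to 0.13 with 1 library left out; that of Iglv1 (-0.06) ran from -0.27 to 0.084. Of the single-gene values recomputed, 1205 kept direction and side of the threshold, 59 lost a call, 11 gained one and 11 changed sign. Depth limits rows such as Igkv1-131 and Igkv1-35, which were too low to test.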
